A study of Mus musculus with 20 samples.

Results

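The mitochondrially encoded genes are the 37 genes that GENCODE M21 places on the mouse mitochondrial chromosome (chrM, mm10). They were taken by their chromosome and by symbols that start with mt-. They comprise 13 mRNAs, 2 rRNAs and 22 tRNAs, out of 42890 genes with a value in the series. The tables held rows for 15 of them, namely the 13 mRNAs and the 2 rRNAs, and the 22 tRNAs were not analysed here. RNA of abdominal aorta from C57BL/6 mice was sequenced after ribosomal RNA depletion. The design had 4 groups of 5 libraries. These were wild type mice (labelled Rab22 WT) given saline, wild type mice given angiotensin II (AngII), Rab22a knockout mice (labelled Rab22a KO) given saline, and Rab22a knockout mice given AngII. AngII is a peptide hormone that narrows arteries and raises blood pressure. It was given at 500 ng/kg/min, and both treatments lasted 14 days. Rab22a is a small GTPase of endosomal traffic. The sources used here do not give how the knockout allele was made, in which cells it acts, or the age and sex of the mice. Going by its title, the series asked about the role of Rab22a in hypertension and vascular dysfunction under AngII. No label says that the libraries of a group came from separate mice, so p-values measure the spread between these libraries.

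The mitochondrial chromosome is a small circle that is transcribed from both strands into long precursors. Most of its mRNAs and both rRNAs are flanked by tRNAs, and cutting the tRNAs out of the precursor releases them. The mRNAs encode core subunits of the respiratory chain, namely of complex I (the Nd genes), complex III (Cytb), complex IV (the Co genes) and complex V, the ATP synthase (the Atp genes). The rRNAs mt-Rnr1 and mt-Rnr2 form the small and large subunits of the mitochondrial ribosome. The vessel wall, brown fat and skeletal muscle differ widely in how many mitochondria their cells hold, and brown fat lies close to the aorta in mice. Nuclear chromosomes carry copies of stretches of mitochondrial DNA, and these copies can be annotated as genes of their own.

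The values were FPKM, that is, reads scaled to the length of the transcript and to the depth of the library. They implied 68744750 to 77387500 reads per library. The transcript ENSMUST00000029024 of Rab22a, the deleted gene, stood at 1.87 to 8.62 FPKM in the 10 wild type libraries and at 0 to 0.00563 FPKM in the 10 knockout libraries. The 7 smooth muscle markers had a summed level of 1117 to 6291 FPKM per library. Of them, 6 reached 1 FPKM in at least 5 libraries, and Myocd stood at only 0.102 to 1.41 FPKM. Over all 15010 genes tested, the numbers called at an adjusted p under 0.05 (limma with Benjamini-Hochberg adjustment) were 0 for AngII in either genotype and for the interaction, 2 between genotypes under saline, 275 under AngII and 623 over both treatments.

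Levels of the 15 members ran from 0.0437 FPKM to 29363 FPKM. Only 5 members had at least 100 FPKM in all 20 libraries, namely mt-Rnr1, mt-Rnr2, mt-Co1, mt-Co2 and mt-Nd3. The highest was mt-Co1 (chrM:5328-6872, plus strand), the catalytic subunit of complex IV, at 8067 to 29363 FPKM. It was followed by mt-Co2 (chrM:7013-7696), which receives electrons from cytochrome c, at 3335 to 12104 FPKM, and by mt-Rnr2 (chrM:1094-2675), at 1641 to 7512 FPKM. mt-Rnr1 (chrM:70-1024) ranged over 651 to 3795 FPKM and mt-Nd3 (chrM:9459-9806), a membrane subunit of complex I, over 534 to 2585 FPKM. mt-Nd1 (chrM:2751-3707), another membrane subunit of complex I, was lower at 10.5 to 74.96 FPKM. The other 9 members were low in most libraries or changed by orders of magnitude from library to library, and 7 of the 13 mRNAs fell under 1% of their own highest value in at least 1 library. The values of single genes are therefore given after those of their nuclear copies.

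**Figure D1:**
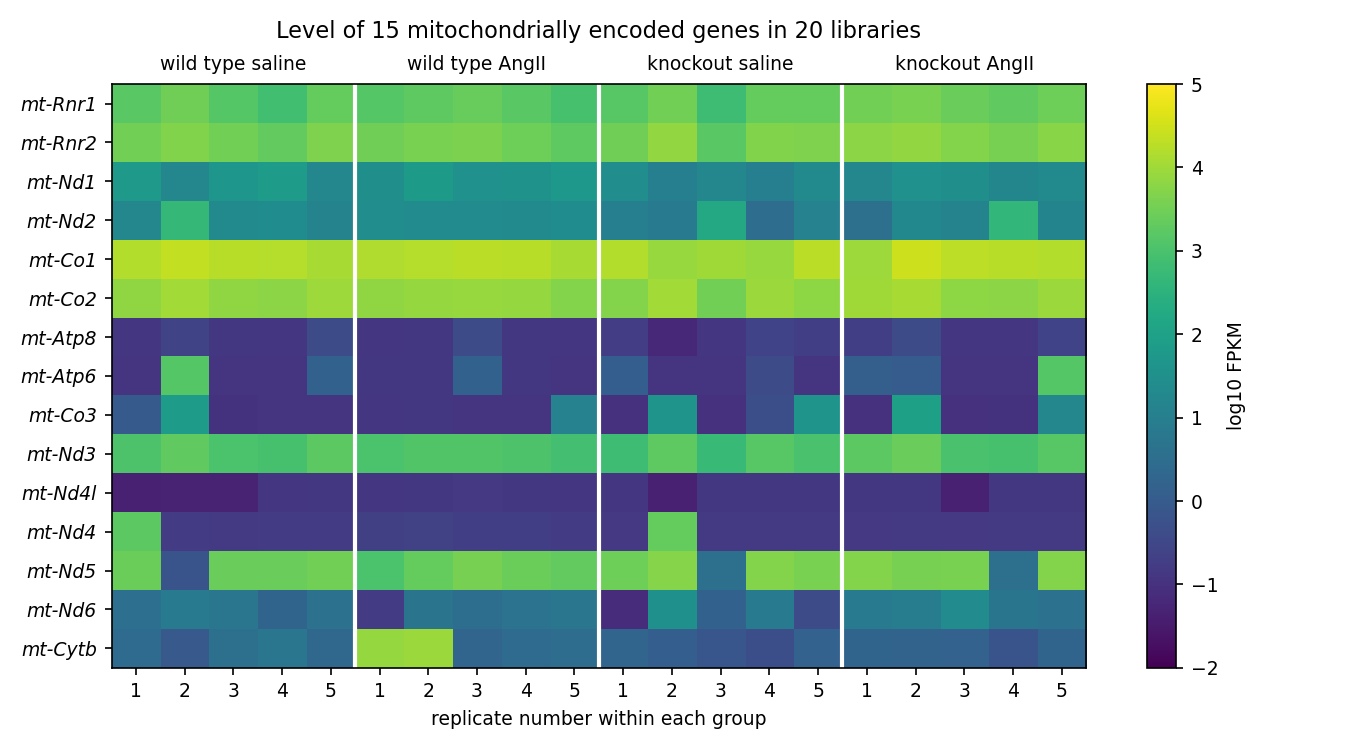
Level of each of the 15 members with a value (rows, in the order of the chromosome) in each of the 20 libraries (columns, by group and replicate number), as log10 FPKM by colour. mt-Rnr1, mt-Rnr2, mt-Co1, mt-Co2 and mt-Nd3 stayed at 100 FPKM or more throughout, whereas mt-Cytb was at 8049 and 8949 FPKM in 2 libraries and at 5.55 FPKM or less in the other 18.

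Transcripts of 11 annotated nuclear genes matched a mitochondrial gene over at least 100 bases at 95% identity or more. Of these, 7 lie next to each other on the minus strand of chromosome 1 (chr1:24611535-24616197, 4663 bases) and are annotated as unprocessed pseudogenes. The other 4 lie on chromosomes 2 and 13. Gm10925 matched mt-Atp6 over 678 bases, Gm28661 matched mt-Co2 over 681 bases, Gm28437 matched mt-Co3 over 783 bases and Gm10222 matched mt-Nd4l over 294 bases, each with 100% identity. Gm29216 matched the last 483 bases of mt-Co1 with the substitution A1066T, and Gm28438 matched 345 bases of mt-Nd3 with the substitution T3C. Positions count from 1 at the first base of the mitochondrial transcript, and the mitochondrial base comes first. The stretches that hold these differences are shown because a read within the matched bases that misses them cannot be told from the copy. The part of mt-Co1 before base 1063 has no match in Gm29216. The differing base is in capitals. The GENCODE M21 transcript sequences read as follows.
mt-Co1 (bases 1063 to 1096): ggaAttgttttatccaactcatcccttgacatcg
Gm29216 (bases 10 to 43): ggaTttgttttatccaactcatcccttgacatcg
mt-Nd3 (bases 1 to 33): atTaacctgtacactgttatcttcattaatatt
Gm28438 (bases 1 to 33): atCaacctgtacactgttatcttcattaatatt
The start of mt-Co2 is shown as an example of a stretch without a difference, and its copy Gm28661 has the same 61 bases.
mt-Co2 (bases 1 to 61): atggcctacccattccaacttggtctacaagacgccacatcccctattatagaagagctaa
By contrast, Gm13340 on chromosome 2 differs from mt-Co1 at 37 of 1545 bases, and the window from base 459 to base 519 holds 4 of these differences (A462G, A468G, T501C and C519T).
mt-Co1 (bases 459 to 519): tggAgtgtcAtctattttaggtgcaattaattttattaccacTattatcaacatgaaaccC
Gm13340 (bases 459 to 519): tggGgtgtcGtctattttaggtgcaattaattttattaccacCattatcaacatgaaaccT

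Of the 7 copies in the chromosome 1 block, 5 were listed at levels like those of the steady mitochondrial genes. Gm10925 had a mean of 8177 FPKM over the 20 libraries, Gm28661 7711, Gm28437 6986, Gm29216 4392 and Gm28438 1198 FPKM. The more diverged Gm13340 stood at 5.39 to 26.5 FPKM. For mt-Co2 and its copy the values were nearly equal in each library, with a ratio of 0.971 to 1.05. The ratio of mt-Nd3 to Gm28438 was 1.03 to 1.16. For mt-Atp6 and mt-Co3 most of the signal was listed under the copy. mt-Atp6 was at 1.49 FPKM or less in 18 libraries while Gm10925 ran over 3785 to 13394 FPKM, and mt-Co3 was at 92.9 FPKM or less in all libraries while Gm28437 ran over 3333 to 10584 FPKM. The sources used here do not say how reads were shared among identical transcripts. The levels of mt-Co1, mt-Co2, mt-Co3, mt-Nd3, mt-Nd4l, mt-Nd4 and mt-Atp6 are therefore uncertain as single values, and for mt-Atp6, mt-Co1, mt-Co2, mt-Co3 and mt-Nd3 the level with the reads of the copies added is given too.

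**Figure D2:**
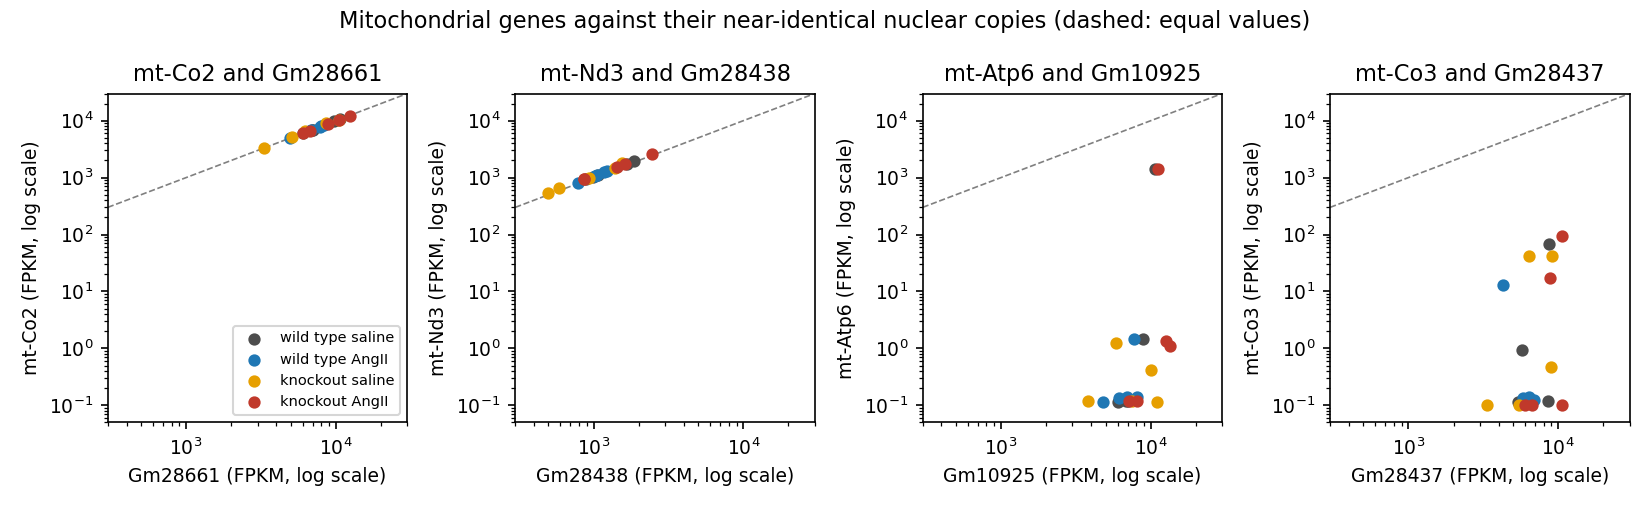
FPKM of 4 mitochondrial genes (vertical axis) against FPKM of their near-identical nuclear copies (horizontal axis), both on log scales, with 1 point per library and colours for the groups. mt-Co2 and mt-Nd3 lay along the dashed line of equal values (ratios of 0.971 to 1.05 and 1.03 to 1.16), whereas mt-Atp6 and mt-Co3 lay far under it.

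Complex V is represented by mt-Atp8 and mt-Atp6, which share a transcript in the cell, since the reading frame of mt-Atp6 starts inside that of mt-Atp8. The annotated genes overlap by 43 bases at chrM:7927-7969, shown here because reads in this stretch belong to both.
mt-Atp8 and mt-Atp6, shared bases: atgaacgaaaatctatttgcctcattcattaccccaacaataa
mt-Atp8 was listed at 0.0637 to 0.428 FPKM, which corresponds to 1 to 6 reads per library. mt-Atp6 was at 1395 FPKM in wild type saline replicate 2 and at 1440.1 FPKM in knockout AngII replicate 5, and the other 18 libraries held 0.114 to 1.49 FPKM, or 6 to 77 reads. The 2 high libraries belong to different genotypes and treatments. With the reads of Gm10925 added, the mean of mt-Atp6 (SD, n = 5) was 8101 ± 2387 FPKM for wild type saline, 6714 ± 1299 for wild type AngII, 7580.1 ± 2903 for knockout saline and 10736 ± 2909.7 FPKM for knockout AngII. The knockout AngII group had the highest mean, and its 5 values (7160.5 to 13336 FPKM) overlapped those of wild type AngII (4808 to 8090.4 FPKM). In bulk tissue, a difference in the number of cells rich in mitochondria and a difference in mitochondrial RNA per cell cannot be told apart. The difference from wild type AngII was 0.65 ± 0.29 (SE) on the scale of log2(FPKM + 1), with an adjusted p of 0.253 by limma.

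mt-Co3, the third core subunit of complex IV, was at 0.0999 to 0.943 FPKM in 14 libraries and at 12.9 to 92.9 FPKM in the other 6, which came from all 4 groups. With Gm28437 added its means were 6859 ± 1605, 5944 ± 997, 6629 ± 2428 and 8533 ± 2169 FPKM (SD, n = 5), in the same order of groups. The knockout AngII groups of mt-Co3 and mt-Atp6 thus had the highest means once copies were counted, and both overlapped the other groups. For mt-Co3 with its copy, knockout against wild type under AngII gave 0.50 ± 0.27 (SE), adjusted p = 0.353 by limma.

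The genes mt-Nd4l and mt-Nd4, membrane subunits of complex I, overlap by 7 bases at chrM:10167-10173. mt-Nd4l was listed at 0.0437 to 0.147 FPKM, or 1 to 3 reads, in every library. mt-Nd4 reached 1706 FPKM in wild type saline replicate 1 and 2223 FPKM in knockout saline replicate 2, and stood at 0.142 to 0.237 FPKM (15 to 24 reads) in the other 18. Gm10222, the copy of mt-Nd4l, was at 3228 FPKM in that same knockout saline replicate 2 and at 0.148 FPKM or less elsewhere. Gm28439, whose 876 bases are identical to the start of mt-Nd4, was at 0.0445 to 0.140 FPKM throughout. So in 18 of 20 libraries neither the mitochondrial pair nor its copies carried signal above 1 FPKM.

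mt-Cytb (chrM:14145-15288), the mitochondrial subunit of complex III, was high in 2 libraries of the same group and low in the other 18. In wild type AngII replicates 1 to 5 it stood at 8049, 8949, 1.95, 2.88 and 3.12 FPKM, and in wild type saline replicates 1 to 5 at 2.75, 0.896, 3.79, 5.55 and 2.29 FPKM. In knockout saline it was at 1.93, 1.23, 0.745, 0.470 and 1.55 FPKM, and in knockout AngII at 1.81, 1.71, 1.54, 0.670 and 1.86 FPKM. Replicates 1 and 2 of the wild type AngII group held 712607 and 752317 reads of this gene, and the other 18 libraries held 41 to 490. The 5 wild type AngII values did not overlap the 5 knockout AngII values, as held for 5.21% of all genes tested in that comparison, and the fitted difference was -5.03 ± 1.83 (SE) with an adjusted p of 0.163 by limma. For AngII against saline in wild type aortas the difference was 4.43 ± 1.83 (SE), adjusted p = 1.00 by limma. Without wild type AngII replicates 1 and 2, an alternative chosen after the values were seen, these differences became -0.55 and -0.05. mt-Nd4 was the other member whose groups did not overlap in this comparison, with 0.145 to 0.156 FPKM in knockout AngII against 0.170 to 0.237 FPKM in wild type AngII. It had 15 to 24 reads in these libraries and did not pass the filter for testing.

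mt-Nd5 (chrM:11742-13565), a large proton-pumping subunit of complex I, was high in most libraries. It stood at 1035 to 5384 FPKM in 17 libraries. The exceptions were wild type saline replicate 2 at 0.654 FPKM, knockout saline replicate 3 at 3.83 FPKM and knockout AngII replicate 4 at 3.93 FPKM. In exactly these 3 libraries mt-Nd2 (chrM:3914-4951), also of complex I, was high, at 465, 172 and 431 FPKM against 3.08 to 26.5 FPKM in the other 17. A transcript model of the authors without annotation or coordinates, MERGE.27365.4, was singled out after the values were seen because it was high there too. It stood at 1317, 456 and 840.5 FPKM in the 3 libraries, at 665 FPKM in wild type AngII replicate 1 and at 44.5 FPKM or less in the other 16. Whether this model holds mitochondrial sequence was not tested. The 3 libraries come from 3 different groups.

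mt-Nd6 (chrM:13552-14070), a subunit of complex I, is the only mRNA on the minus strand, and it overlaps mt-Nd5 on the opposite strand by 14 bases. Its level was 0.0754 to 32.8 FPKM. Knockout saline held both its lowest and its highest value, 0.0754 FPKM in replicate 1 and 32.8 FPKM in replicate 2. In wild type saline it was 3.52, 7.55, 5.51, 1.82 and 4.16 FPKM in replicates 1 to 5, and in wild type AngII 0.174, 5.01, 3.42, 4.56 and 5.55 FPKM. The other knockout saline libraries, replicates 3 to 5, held 1.46, 7.74 and 0.412 FPKM, and knockout AngII held 8.25, 9.20, 23.6, 5.33 and 4.17 FPKM. All groups overlapped. The knockout AngII value was above that of wild type AngII in 21 of 25 pairs of libraries, and the difference was 1.21 ± 0.75 (SE), adjusted p = 0.425 by limma. The labels do not say whether strand was kept, so reads of the opposite strand cannot be told apart here.

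The rRNAs were steady enough for a comparison of groups. mt-Rnr2 stood at 3257, 4626, 3186, 2017 and 4456 FPKM in wild type saline replicates 1 to 5 and at 2994, 3892, 4156, 2885 and 1887 FPKM in wild type AngII. In knockout saline it was at 2989, 7512, 1641, 4676 and 4427 FPKM, and in knockout AngII at 6151, 7340.4, 4889.6, 3765 and 5693 FPKM. The 2 highest values were those of knockout saline replicate 2 and knockout AngII replicate 2, and only the lowest knockout AngII library fell into the range of wild type AngII. In 23 of 25 pairs of libraries the knockout AngII value was the higher. The difference was 0.83 ± 0.35 (SE), with a 95% interval of 0.15 to 1.51 and an adjusted p of 0.224 by limma. Under saline it was 0.16 ± 0.35 (SE), adjusted p = 0.939 by limma. The AngII value ran from 0.60 with quantile normalization to 0.99 with the nuclear total as scale, and the saline value was -0.02 with quantile normalization.

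mt-Rnr1 followed mt-Rnr2 closely. It stood at 1636, 2952, 1417, 784 and 2283 FPKM in wild type saline, 1458, 1804, 2288, 1657 and 913 in wild type AngII, 1527, 3305, 651, 2257 and 2251 in knockout saline and 3188, 3795, 2482, 1954 and 2786 FPKM in knockout AngII. The ratio of mt-Rnr2 to mt-Rnr1 was 1.57 to 2.57 over all libraries and 1.93 to 2.04 within knockout AngII. Across libraries the 2 rRNAs had a Pearson r of 0.98 on the log2 scale, given as a description since they share library, depth and depletion step. Knockout AngII was above wild type AngII in 24 of 25 pairs, with a difference of 0.83 ± 0.40 (SE) and an adjusted p of 0.290 by limma. With the levels of the brown adipocyte and skeletal muscle lists as 2 covariates, the adjusted p under AngII was 0.0158 for mt-Rnr1 and 0.0213 for mt-Rnr2 by limma, with differences of 0.88 ± 0.18 (SE) and 0.85 ± 0.19 (SE). In that fit 4.2% of all genes were called. Over both treatments the same fit gave 0.70 ± 0.13 (SE) for mt-Rnr1 (adjusted p = 0.00408 by limma) and 0.70 ± 0.13 (SE) for mt-Rnr2 (adjusted p = 0.00517 by limma), with 12.0% of all genes called. The rRNAs are of the class that depletion removes. Whether depletion differed between groups was not tested. Leukocyte markers moved with the same comparison. The B and plasma cell list (7 genes) had a mean level of 5.91 (log2) in wild type AngII and 3.56 in knockout AngII, with summed levels of 981 to 2487 FPKM against 10.3 to 1446 FPKM. The T cell list (5 genes) had mean levels of 4.28 and 2.57, with summed levels of 73.1 to 151 FPKM against 3.75 to 149 FPKM. No gene of either list was under 1 FPKM in all libraries. Neither list was in a fit, and their part in the rRNA difference was not tested.

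Of the complex IV genes, mt-Co1 was the most abundant member in 17 of 20 libraries. It stood at 15697, 23007, 17229.6, 16265 and 11987 FPKM in wild type saline replicates 1 to 5 and at 14438, 16594, 18839, 17898 and 12278 FPKM in wild type AngII. In knockout saline it was at 15431, 8299, 10310.5, 8067 and 18835 FPKM, and in knockout AngII at 9431, 29363, 19742, 17288 and 15286 FPKM. The spread was wider in both knockout groups, with SDs of 4752 and 7301 FPKM against 3980.3 and 2660.4 FPKM in wild type, a difference in spread that was not tested. The ratio of mt-Co1 to mt-Co2 was above 1.7 in 16 libraries. It was 0.794 and 0.897 in knockout saline replicates 2 and 4, 0.934 in knockout AngII replicate 1 and 1.24 in wild type saline replicate 5. The genotype difference was -0.52 ± 0.30 (SE) under saline and 0.11 ± 0.30 (SE) under AngII, with adjusted p of 0.742 and 0.888 by limma. With Gm29216 and Gm13340 added, the group means of mt-Co1 were 18186 ± 4035, 17249.7 ± 2820.2, 13496 ± 4584 and 19973 ± 7423 FPKM (SD, n = 5). Under AngII its sign depended on scaling, at -0.25 with quantile normalization.

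mt-Co2 and mt-Nd3 varied together over the libraries. mt-Co2 stood at 6892, 10513, 6799, 6045 and 9695 FPKM in wild type saline and at 6762, 7905, 8347, 7786 and 4903 FPKM in wild type AngII. It was at 5104, 10447, 3335, 8993 and 6488 FPKM in knockout saline and at 10103, 12104, 6546, 5952 and 8780.1 FPKM in knockout AngII. All 4 groups overlapped. mt-Nd3 stood at 1127, 1931, 1041, 937 and 1729 FPKM in wild type saline and at 1064, 1289, 1243, 1112 and 816 FPKM in wild type AngII. Its knockout saline values were 651, 1792, 534, 1484 and 991 FPKM, and its knockout AngII values 1759, 2585, 948, 930.4 and 1531 FPKM. Knockout AngII replicate 2 was the highest library and knockout saline replicate 3 the lowest for both genes. The group means of mt-Nd3 were 1353 ± 446, 1105 ± 186, 1090.3 ± 538 and 1551 ± 682 FPKM (SD, n = 5), in that order of groups. Its ratio to mt-Co2 was 0.128 to 0.214, and the Pearson r of their log2 values was 0.97, whereas that of mt-Co1 with mt-Co2 was 0.13, both as descriptions over 20 libraries. For mt-Co2 the genotype difference was -0.30 ± 0.30 (SE) under saline and 0.26 ± 0.30 (SE) under AngII (adjusted p = 0.871 and 0.685 by limma), and the latter was -0.07 with quantile normalization. With copies added, the means ran from 13574 FPKM in knockout saline to 17545 FPKM in knockout AngII for mt-Co2 and from 2074 to 2985 FPKM in the same groups for mt-Nd3.

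**Figure D3:**
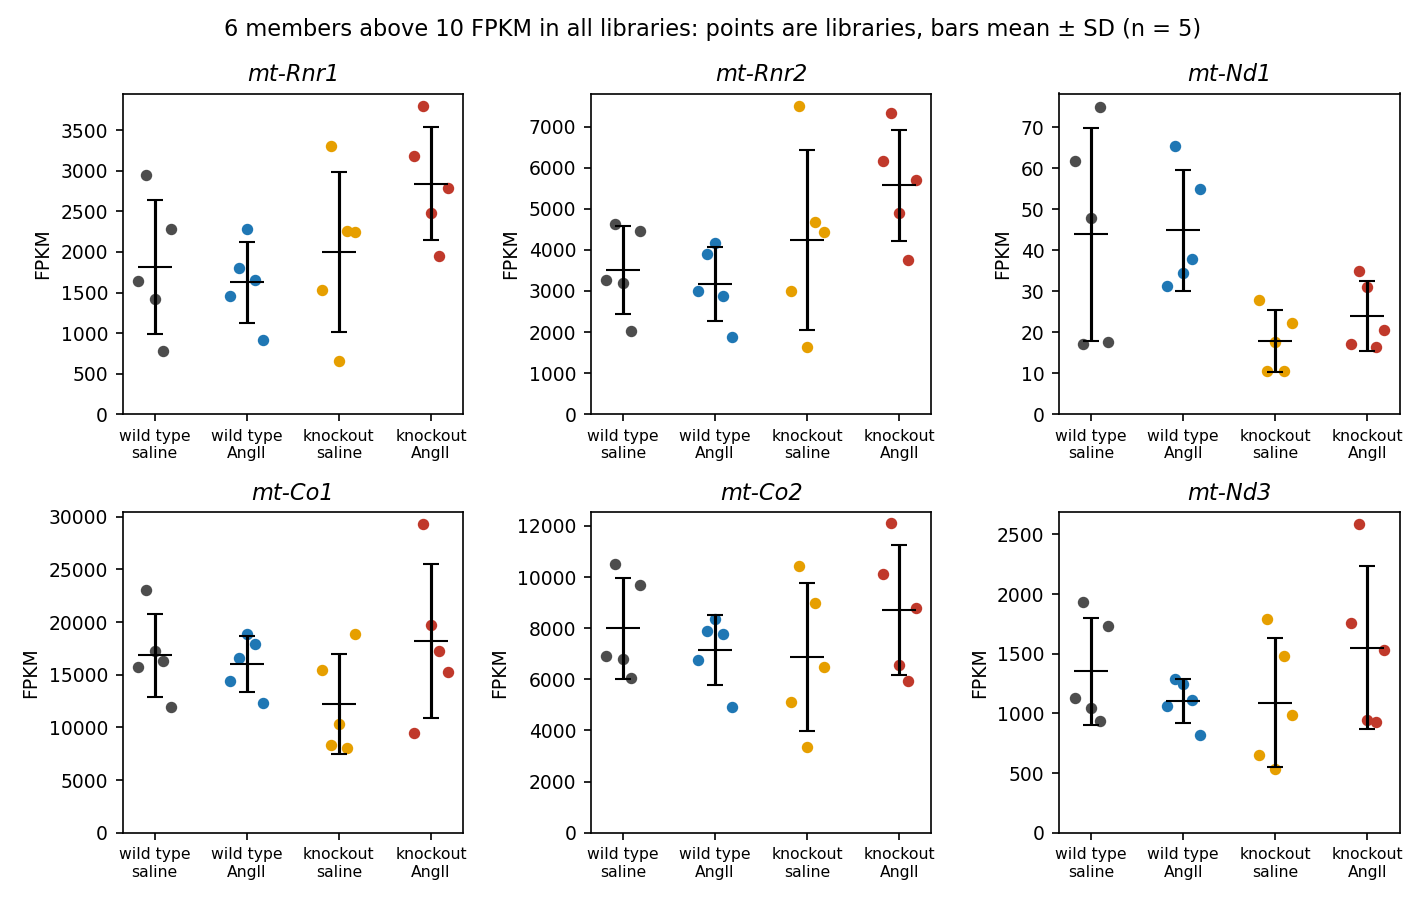
FPKM of 6 members by group, where each point is a library and the bars are the mean ± SD of 5 libraries. The groups overlapped for each of the 6 genes, and the means of both rRNAs were highest in knockout AngII (2841 FPKM for mt-Rnr1 and 5568 FPKM for mt-Rnr2).

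mt-Nd1 was the member closest to a call. It stood at 61.7, 17.1, 47.8, 74.96 and 17.7 FPKM in wild type saline replicates 1 to 5 and at 31.4, 65.5, 34.4, 37.9 and 54.8 FPKM in wild type AngII. It was at 27.9, 10.6, 17.5, 10.5 and 22.4 FPKM in knockout saline and at 17.1, 35.0, 31.04, 16.4 and 20.5 FPKM in knockout AngII. Wild type saline split into 3 libraries at 47.8 FPKM or more and 2 at 17.7 FPKM or less, and the low ones lay within the knockout range. All values of mt-Nd1 lay far under those of mt-Rnr2, the nearest member with a value on the chromosome (1641 to 7512 FPKM). Whether any of the 16637 models without annotation holds reads of mt-Nd1 was not tested, so its level is uncertain too. Over both treatments, knockout against wild type was -0.996 ± 0.28 (SE), with a 95% interval of -1.54 to -0.45 and an adjusted p of 0.0508 by limma, just above the threshold of 0.05. The adjusted p by limma was 0.0290 without wild type saline replicate 2, 0.0358 without wild type saline replicate 5, 0.0332 without knockout saline replicate 1, 0.0494 without knockout saline replicate 3 and 0.0449 without knockout AngII replicate 2, and it was 0.0188 with the 2 tissue covariates and 0.0397 with a filter at 5 FPKM. Under the other alternatives it ran from 0.05003 to 0.168, and the difference was below 0 under each. Within treatments the difference was -1.11 ± 0.39 (SE) under saline (adjusted p = 0.528) and -0.88 ± 0.39 (SE) under AngII (adjusted p = 0.258, limma). The B and plasma cell list and the T cell list had a Pearson r of 0.51 and 0.50 with mt-Nd1 over the 20 libraries (permutation p adjusted over 55 relations = 0.0706 and 0.0738), with a Spearman rho of 0.48 and 0.37 (permutation p adjusted = 0.120 and 0.311). Without the 2 libraries farthest from the median, r was 0.50 and 0.62. Within the 10 wild type libraries r was 0.84 and 0.82, and within the 10 knockout libraries 0.14 and 0.13. With the brown adipocyte list it was -0.06 over the 20 libraries, -0.72 within wild type and 0.08 within knockout. For the mesothelium list these values were -0.04, -0.63 and 0.34, for macrophages 0.45, 0.52 and 0.28, and for white adipocytes -0.07, 0.19 and -0.82. The B and plasma cell list and the T cell list were themselves lower on average in the knockouts. The B and plasma cell level was 5.60 in wild type saline and 5.91 in wild type AngII against 3.93 and 3.56 in the knockouts, and the T cell level was 3.91 and 4.28 against 2.84 and 2.57. Their part in the mt-Nd1 difference was not tested.

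Summed over classes, the 13 mRNAs reached 29192 ± 4679.9 FPKM (SD, n = 5) in wild type saline, 30070.1 ± 6196 in wild type AngII, 24092 ± 6112 in knockout saline and 32476 ± 9178 FPKM in knockout AngII. The 2 rRNAs summed to 5323 ± 1881, 4787 ± 1387, 6247 ± 3169.6 and 8409 ± 2038 FPKM (SD, n = 5), in the same order. The mRNA sums include members that switched, such as mt-Cytb at 8049 and 8949 FPKM in wild type AngII replicates 1 and 2. Over only the mRNAs with at least 100 FPKM in all libraries, wild type saline averaged 26179 FPKM, wild type AngII 24255 and knockout saline 20152. Knockout AngII then ran from 21294 to 44052 FPKM. The order of the wild type groups was thus reversed. As a share of the reads of a library, the 15 members held 4.41 ± 0.644%, 4.48 ± 0.905%, 3.95 ± 1.13% and 5.30 ± 1.43% (SD, n = 5), and 2.18 to 7.66% over all 20. Together with their nuclear copies they held 6.28 ± 1.01%, 6.12 ± 1.17%, 5.69 ± 1.68% and 7.61 ± 1.90%. Knockout saline replicate 3 was the lowest library and knockout AngII replicate 2 the highest by each of these sums and shares, and the group ranges overlapped.

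The filter of at least 1 FPKM in at least 5 libraries was passed by 12 of the 15 members, and mt-Atp8, mt-Nd4l and mt-Nd4 were not tested. For AngII against saline in wild type aortas, 0 of 12 were called by limma at an adjusted p under 0.05 and 1 at an unadjusted p under 0.05, against 0.0% and 3.05% of all genes. In knockout aortas 0 of 12 were called and 0 had an unadjusted p under 0.05, against 0.0% and 3.96%. Knockout against wild type gave 0 calls and 1 unadjusted p under 0.05 under saline (0.0133% and 7.37% of all genes), 0 calls and 3 under AngII (1.83% and 17.3%), and 0 calls and 2 over both treatments (4.15% and 20.2%). The interaction of genotype and AngII, and AngII averaged over genotypes, gave 0 calls and 0 unadjusted p under 0.05 (0.0% called in both, 3.34% and 3.41% unadjusted). At 0 to 3 of 12, these counts were not read as a result about the members. limma-voom on reads recovered from the FPKM also gave 0 calls among the members in each of the 7 comparisons.

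For the 5 members at 100 FPKM or more in all libraries, AngII against saline ran from -0.25 to -0.06 in wild type aortas (median -0.14, against 0.02 over all genes tested). In knockout aortas it ran from 0.40 to 0.66 (median 0.55, against -0.06), except that quantile normalization gave -0.10 for mt-Co2. The interaction ran from 0.55 to 0.80 for the 5 members (-0.04 for mt-Co2 with quantile normalization and 0.26 to 0.53 with the tissue covariates), with adjusted p of at least 0.995 by limma, so a difference between genotypes in the AngII response was not detectable in 5 libraries per group. For mt-Rnr2 the interaction was 0.67 ± 0.49 (SE), with a 95% interval of -0.29 to 1.63. With copies added, the interaction was 0.58 ± 0.42 (SE) for mt-Co2, 0.61 ± 0.38 (SE) for mt-Co3 and 0.80 ± 0.41 (SE) for mt-Atp6, with adjusted p of at least 0.995 by limma.

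**Figure D4:**
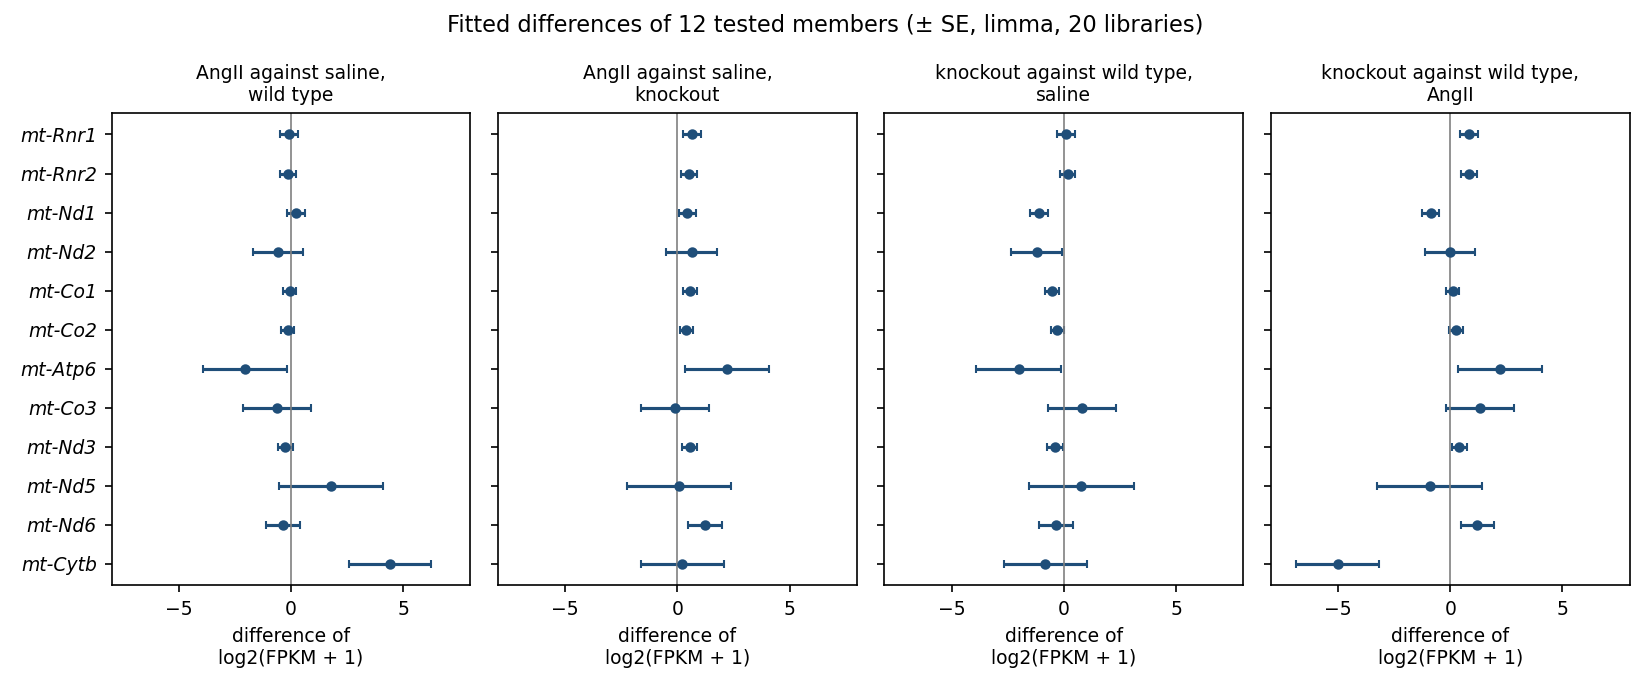
Difference of log2(FPKM + 1) for the 12 tested members in 4 comparisons, with bars of 1 SE from the limma fit over 20 libraries. Members that switched between libraries had wide errors (1.83 for mt-Cytb), and for no member did the adjusted p pass 0.05.

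The libraries differed in their content of other tissues, and mt-Co2, mt-Nd3 and mt-Rnr2 moved with some of these. The skeletal muscle list had a summed level of 3.86 to 6308 FPKM. Its Pearson r with mt-Co2, mt-Nd3 and mt-Rnr2 was 0.25, 0.17 and 0.18 (permutation p adjusted = 0.529, 0.756 and 0.723). Within wild type these r were 0.79, 0.79 and 0.77, and within knockout -0.02, -0.11 and -0.08. The brown adipocyte list (5 genes, Ucp1 among them) had a summed level of 167 to 2057 FPKM, with group ranges of 501 to 1418 in wild type saline, 476 to 1482 in wild type AngII, 167 to 1431 in knockout saline and 621 to 2057 FPKM in knockout AngII. No gene of the list was under 1 FPKM in all libraries. Over 55 relations of 5 members with 11 marker lists, mt-Co2 and the brown adipocyte level had Pearson r = 0.83 (permutation p = 5.00e-05, adjusted p = 0.000770) and Spearman rho = 0.75 (permutation p = 0.000240, adjusted p = 0.00189). Without the 2 libraries farthest from the median, r was 0.66, and it was 0.81 among wild type and 0.86 among knockout libraries. For mt-Nd3 the relation gave Pearson r = 0.78 (permutation p = 0.000110, adjusted p = 0.000864) and Spearman rho = 0.71 (permutation p = 0.000710, adjusted p = 0.00355), and r was 0.58 without the 2 farthest libraries. Libraries with more brown adipocyte RNA had more of both mRNAs, in both genotypes.

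The macrophage list (5 genes) went the other way. With mt-Co2 it had Pearson r = -0.82 (permutation p = 2.00e-05, adjusted p = 0.000550) and Spearman rho = -0.79 (permutation p = 6.00e-05, adjusted p = 0.000825). This r was -0.81 without the 2 farthest libraries, -0.77 within wild type and -0.90 within knockout. mt-Rnr2 had Pearson r = -0.80 (permutation p = 6.00e-05, adjusted p = 0.000770) and Spearman rho = -0.72 (permutation p = 0.000470, adjusted p = 0.00319) with macrophages. Without the 2 farthest libraries its r was -0.74. For T cells mt-Rnr2 had Pearson r = -0.80 (permutation p = 2.00e-05, adjusted p = 0.000550) and Spearman rho = -0.84 (permutation p = 2.00e-05, adjusted p = 0.000550), with r = -0.81 without the 2 farthest libraries. With the B and plasma cell list it had Pearson r = -0.78 (permutation p = 7.00e-05, adjusted p = 0.000770) and Spearman rho = -0.84 (permutation p = 2.00e-05, adjusted p = 0.000550), and r was -0.83 without the 2 farthest libraries, -0.78 within wild type and -0.76 within knockout. Libraries with more leukocyte RNA thus had less of this rRNA, and less of mt-Co2 and mt-Nd3 too. For mt-Co2 Pearson r was -0.71 with T cells and -0.64 with the B and plasma cell list (permutation p adjusted = 0.00143 and 0.00860). For mt-Nd3 it was -0.73, -0.66 and -0.77 with T cells, B and plasma cells and macrophages (permutation p adjusted = 0.00122, 0.00651 and 0.000894). For mt-Co1 r with each of these lists was 0.14. The brown adipocyte relation of mt-Rnr2 gave Pearson r = 0.68 (permutation p = 0.000960, adjusted p = 0.00480) and Spearman rho = 0.50 (permutation p = 0.0261, adjusted p = 0.103). Its r was 0.45 without the 2 farthest libraries, 0.84 within wild type and 0.88 within knockout. mt-Co1 with the brown adipocyte level had Pearson r = 0.34 (permutation p = 0.148, adjusted p = 0.339) and Spearman rho = 0.27 (permutation p = 0.256, adjusted p = 0.521). With the Schwann cell list mt-Co1 had Pearson r = -0.57 (permutation p = 0.00820, adjusted p = 0.0301) and Spearman rho = -0.34 (permutation p = 0.146, adjusted p = 0.357). This r was -0.42 without the 2 farthest libraries, 0.19 within wild type and -0.64 within knockout. The mesothelium list (4 genes, summed level 0.541 to 35.6 FPKM) went with the mRNAs. With mt-Nd3 it had Pearson r = 0.74 (permutation p = 9.00e-05, adjusted p = 0.000825) and Spearman rho = 0.70 (permutation p = 0.000800, adjusted p = 0.00367), and r was 0.59 without the 2 farthest libraries, 0.88 within wild type and 0.69 within knockout. With mt-Co2 it had Pearson r = 0.65 (permutation p = 0.00182, adjusted p = 0.00770) and Spearman rho = 0.68 (permutation p = 0.00132, adjusted p = 0.00558), and r was 0.52 without the 2 farthest libraries. Only the brown adipocyte and skeletal muscle lists entered a fit as covariates. The part of macrophages, lymphocytes and mesothelium in the group means was not tested.

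**Figure D5:**
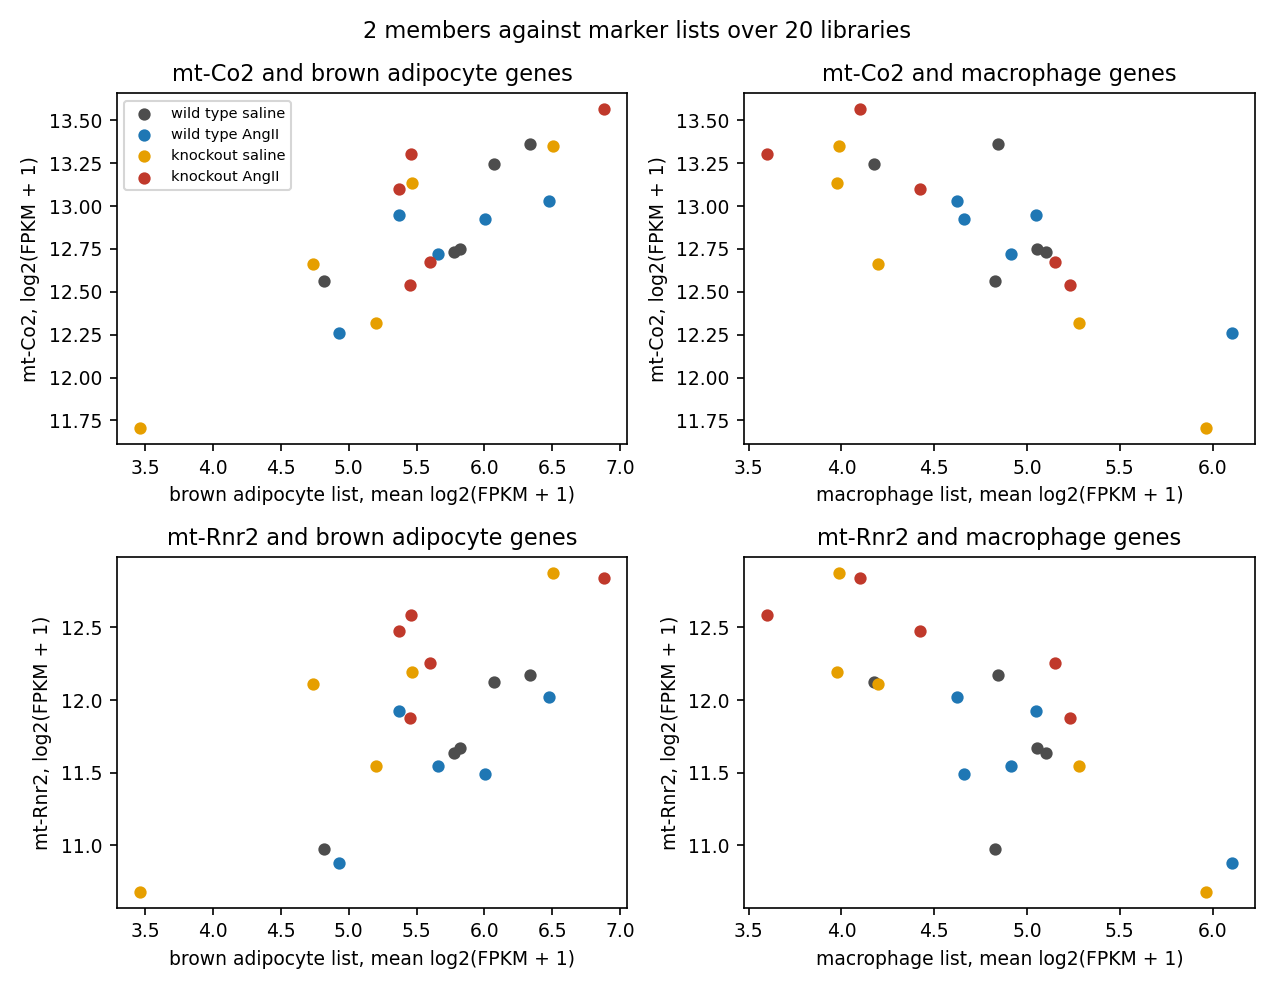
log2(FPKM + 1) of mt-Co2 and mt-Rnr2 (vertical axes) against the mean log2(FPKM + 1) of the brown adipocyte and macrophage lists (horizontal axes), with 1 point per library coloured by group. Both genes were higher where brown adipocyte genes were higher (r = 0.83 and 0.68) and lower where macrophage genes were higher (r = -0.82 and -0.80).

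Of 10549 nuclear genes with at least 1 FPKM in all 20 libraries, the 5 most like the summed mitochondrial mRNAs included Gm9108 (r = 0.84), Hadhb (0.81), Acaa2 (0.81) and Cidea (0.80), by the Pearson r of log2 values over 20 libraries, a description of libraries that share depth and tissue content. Hadhb and Acaa2 encode enzymes of mitochondrial fatty acid oxidation, and Cidea, a lipid droplet protein of brown fat, is also in the brown adipocyte list. Hadhb ran from 108 FPKM in knockout saline replicate 3 to 559.8 FPKM in knockout AngII replicate 2, the same libraries that held the lowest and highest mRNA sums.

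The nuclear genes that serve the mitochondrial chromosome were examined as lists, for knockout against wild type over both treatments. Of 78 mitochondrial ribosomal proteins, which join mt-Rnr1 and mt-Rnr2 in the mitochondrial ribosome, 14 were called lower and 0 higher, against 3.2% and 0.953% of all genes. In all, 76 of the 78 had a difference below 0, where 38.7% of all genes tested lay above 0, with a median of -0.27 against -0.07 over all genes tested. Mrpl23 had means (SD, n = 5) of 51.9 ± 6.92 FPKM for wild type saline, 60.2 ± 10.2 for wild type AngII, 41.8 ± 5.77 for knockout saline and 33.8 ± 3.92 FPKM for knockout AngII, with a difference of -0.56 ± 0.09 (SE), adjusted p = 0.00541 by limma. Mrpl27 (-0.53 ± 0.09 (SE), adjusted p = 0.00564) and Mrpl9 (-0.46 ± 0.08 (SE), adjusted p = 0.00625) were also lower by limma, and with TMM-like factors their adjusted p was 0.0676 and 0.0728 by limma. The count depended on scaling. With factors computed in the manner of TMM 1 of the 78 was called lower, and with quantile normalization or scaling to the nuclear total 3 were, while 64 to 68 still lay below 0. It fell to between 7 and 9 without any 1 of wild type saline replicate 5, wild type AngII replicates 1, 2 and 4, knockout saline replicate 5 and knockout AngII replicates 1 and 3. With the 2 tissue covariates 22 were called lower, in a fit that called 12.0% of all genes, against 4.15% without them. Over all genes, 645 were called with TMM-like factors, 674 with quantile normalization and 317 with the nuclear total, against 623 in the main fit. The brown adipocyte level had group means of 5.76, 5.69, 5.07 and 5.75 (log2), and its part in these counts was not tested further. The rRNAs themselves had differences of 0.46 ± 0.28 (SE) for mt-Rnr1 and 0.50 ± 0.25 (SE) for mt-Rnr2, above 0 under each scaling. Their adjusted p was 0.370 and 0.263 by limma, so neither was called.

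Of 19 genes for cleavage, stability and decay of mitochondrial RNA, 17 had a difference below 0 and 2 were called lower, where 38.7% of all genes tested lay above 0 and 3.2% were called lower. Slirp, which binds and stabilises mitochondrial mRNAs, averaged 9.66 ± 1.69 FPKM (SD, n = 5) under saline and 10.2 ± 1.60 under AngII with Rab22a present, and 4.89 ± 0.893 and 6.35 ± 1.68 FPKM in the knockouts, a difference of -0.74 ± 0.11 (SE), adjusted p = 0.00366 by limma. With limma-voom on the recovered reads its adjusted p was 0.0612, and it was called in each of the other fits. Hsd17b10, a subunit of the enzyme that cuts the leading ends of mitochondrial tRNAs, averaged 144 ± 30.5 FPKM (SD, n = 5) under saline and 145 ± 34.9 under AngII with Rab22a present, and 96.7 ± 9.60 and 91.2 ± 5.56 FPKM in the knockouts, a difference of -0.59 ± 0.12 (SE), adjusted p = 0.0108 by limma. Without wild type AngII replicates 1 and 2 its adjusted p was 0.0629 by limma. The median of the list was -0.09, close to the -0.07 of all genes, and with the nuclear total as scale 9 of 19 lay below 0. Of 7 genes for rRNA modification, Mrm2 (-0.30 ± 0.07 (SE), adjusted p = 0.0256) and Mrm3 (-0.33 ± 0.09 (SE), adjusted p = 0.0419), methyltransferases of the large rRNA, were called lower by limma, and neither was called under the 3 other scalings. Mrm2 was not called without wild type AngII replicate 2 (adjusted p = 0.0567) or knockout saline replicate 5 (0.0547) by limma, and Mrm3 was not called in 14 of the 20 fits that left out 1 library, with adjusted p of up to 0.0854 by limma.

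Of 20 aminoacyl-tRNA synthetase genes, which charge the mitochondrial tRNAs, Sars2 alone was called lower (-0.47 ± 0.09 (SE), adjusted p = 0.00967 by limma), and 16 had a difference below 0 (12 or 13 under the other scalings). With TMM-like factors the adjusted p of Sars2 was 0.0514 by limma. None of 10 genes of mitochondrial DNA replication, 10 of mitochondrial transcription, 10 translation factors or 6 nuclear regulators was called by limma or by limma-voom, and 0, 2, 1 and 1 of them had an unadjusted p under 0.05, as did 20.2% of all genes tested. Polrmt, the mitochondrial RNA polymerase, had a difference of -0.26 ± 0.09 (SE), adjusted p = 0.0938, and Mterf1a, a factor that binds within the tRNA gene next to mt-Rnr2, one of -0.44 ± 0.13 (SE), adjusted p = 0.0582, both by limma. Esrra, a nuclear receptor that acts on genes of mitochondrial metabolism, averaged 36.7 ± 19.8 FPKM (SD, n = 5) in wild type saline, 33.5 ± 18.3 in wild type AngII, 8.64 ± 9.38 in knockout saline and 31.2 ± 17.6 FPKM in knockout AngII, a difference of -1.10 ± 0.52 (SE), adjusted p = 0.247 by limma.

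The nuclear partners of the mitochondrial subunits are needed for the same complexes. Of 35 tested nuclear subunits of complex I, 34 had a difference below 0 and 3 were called lower (Ndufa2, Ndufb11 and Ndufs7). Of all genes, 38.7% lay above 0 and 3.2% were called lower. The median was -0.39 for complex I and -0.07 for all genes, and 20 of the 35 had an unadjusted p under 0.05, against 20.2% of all genes. Under saline all 35 lay below 0 with a median of -0.52 (-0.04 for all genes), and under AngII 29 did with a median of -0.27 (-0.10 for all genes). Ndufa2 averaged 142 ± 36.6 FPKM (SD, n = 5) under saline and 145 ± 36.0 under AngII with Rab22a present, and 90.0 ± 20.6 and 93.8 ± 20.5 FPKM in the knockouts, a difference of -0.63 ± 0.15 (SE), adjusted p = 0.0226 by limma. The count of 3 was 1 with quantile normalization and 0 with TMM-like factors or the nuclear total as scale, while 31 to 33 still lay below 0. It became 0 or 1 without any 1 of wild type saline replicates 2 and 5, wild type AngII replicates 1, 2 and 4, knockout saline replicate 5 and knockout AngII replicates 1, 3 and 5, and 7 or 8 without wild type AngII replicate 5, knockout saline replicate 2 or knockout AngII replicate 2. All 9 subunits of complex III, all 10 of complex IV and 13 of 14 of complex V had differences below 0 (6, 7 and 12 with quantile normalization). None was called by limma or limma-voom, while 3 of 9, 3 of 10 and 3 of 14 had an unadjusted p under 0.05, against 20.2% of all genes. By treatment, the median of complex III was -0.51 under saline and -0.07 under AngII, where 3 of 9 lay above 0, that of complex IV was -0.48 and -0.17, and that of complex V was -0.29 and -0.22. The brown adipocyte level averaged 5.07 ± 1.11 (SD, n = 5) in knockout saline, against means of 5.69 to 5.76 in the other groups. Its knockout saline libraries ran from 3.46 to 6.51, so the groups overlapped. In the fit with the brown adipocyte and skeletal muscle covariates, 11 complex I subunits were called lower, where 12.0% of all genes were called. The medians of the complexes in that fit are not given here, and the part of brown fat in them was not tested. Cox5b, a nuclear subunit of complex IV, was at -0.68 ± 0.19 (SE), adjusted p = 0.0533 by limma. Beside these, the mitochondrially encoded mt-Co1 and mt-Co2 had differences of -0.21 ± 0.21 (SE) and -0.02 ± 0.21 (SE), neither called. The latter was 0.10 with the nuclear total as scale.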

How the data were processed

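Total RNA of mouse abdominal aorta was sequenced after ribosomal RNA depletion, per the labels' protocols. The deposited tables hold one value per transcript for each of 20 libraries, and the values were taken to be FPKM as computed by the authors, which rests on the values themselves: at known transcript lengths they gave whole reads, within 0.1, in 99.4% to 99.6% of low transcripts. The submitters' processing notes name mm10 and limma. The sources used here do not give the aligner, the counting tool, its strand setting or its rule for reads with several matches.

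Of 126719 transcript models, 109913 matched GENCODE M21, and FPKM were summed over the transcripts of a gene. The 16637 models without annotation belong to no gene here. Genes that reached 1 FPKM in 5 or more libraries (15010) were fitted on log2(FPKM + 1) with limma 3.58.1 in R 4.3.3 (lmFit, then eBayes with trend and robust) over all 20 libraries. There were 7 comparisons, with Benjamini-Hochberg adjustment over 15010 genes and calls at an adjusted p under 0.05. A fold change on this scale understates the change of low genes. On simulated data for knockout against wild type under saline (15010 genes, 200 of them changed), 53% of log2 changes of 1 and 85.5% of log2 changes of 2 were recovered. Near-identical copies were found with blastn 2.17.0 on GENCODE transcripts (at least 100 bases at 95% identity), and their reads were added to the member in an alternative. A marker level is the mean log2(FPKM + 1) of its list. Correlations with marker levels were tested with 100000 permutations and adjusted over 55 relations. Tables and figures were made with Python 3.11.15, pandas 2.3.3 and matplotlib 3.10.9.

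The members and gene lists were chosen with earlier results of these data known. All members are accounted for, with every library's value for both rRNAs, mt-Nd6 and the 4 mRNAs with the smallest p. Nuclear genes named are up to 3 per machinery list by smallest p, the copies of highest mean and the 5 genes most correlated with the summed mRNAs, of which 1 is not reported here. mt-Co2, mt-Nd3, the other members, the rest of the copies and MERGE.27365.4 were described beyond that rule, after their values were seen. Alternatives changed the scaling, the filter, the pseudocount, the fit, the tissue covariates, the unit and the libraries left out.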

Additional observations from a re-analysis of the deposited data

Results flagged for a closer look

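Within groups of 5, the highest or lowest library stood apart from the other 4 in 20 of 60 group values of the 15 members (gap over range above 0.71, a value that chance passes in about 1 of 20 groups, or 3 of 60). The 20 values belong to 9 members, the same ones that switched between libraries or had few reads.

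mt-Nd2 stood apart at 464.8 FPKM in wild type saline replicate 2, 171.6 FPKM in knockout saline replicate 3 and 431.3 FPKM in knockout AngII replicate 4. mt-Nd5 was apart on the low side in 2 of the same libraries, at 0.654 FPKM in wild type saline replicate 2 and 3.93 FPKM in knockout AngII replicate 4. mt-Nd4 was high at 1706 FPKM in wild type saline replicate 1 and at 2223 FPKM in knockout saline replicate 2. mt-Atp6 was high at 1395 FPKM in wild type saline replicate 2, 1.45 FPKM in wild type AngII replicate 3, 1.23 FPKM in knockout saline replicate 1 and 1440.1 FPKM in knockout AngII replicate 5. mt-Co3 was high at 68.5 FPKM in wild type saline replicate 2, 12.9 FPKM in wild type AngII replicate 5 and 92.9 FPKM in knockout AngII replicate 2.

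mt-Nd6 was high at 32.8 FPKM in knockout saline replicate 2 and at 23.6 FPKM in knockout AngII replicate 3. mt-Cytb was low at 0.670 FPKM in knockout AngII replicate 4. Among members with 6 reads or fewer per library, mt-Atp8 was high at 0.428 FPKM in wild type AngII replicate 3, and mt-Nd4l was low at 0.0437 FPKM in knockout saline replicate 2 and 0.0450 FPKM in knockout AngII replicate 3.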

How the results depend on the processing

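The count of members called was 0 under every alternative run for the AngII comparisons, the interaction and the saline comparison of genotypes. For knockout against wild type it changed as follows: under AngII 2 members were called with the brown adipocyte and skeletal muscle covariates, and over both treatments 3 were called with these covariates, 1 with the filter at 5 FPKM, and 0 to 1 when single libraries were left out. The summed mRNA level with near-identical copies added was 54519 FPKM for wild type saline, 52175 for wild type AngII, 47916 for knockout saline and 63469 FPKM for knockout AngII, and the share of reads was then 6.28%, 6.12%, 5.69% and 7.61%. For mt-Cytb, AngII against saline in wild type aortas changed sign to -0.0514 without wild type AngII replicates 1 and 2. Another scaling moved the median of all genes for knockout against wild type under AngII from -0.10 to 0.03 (quantile normalization).

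Among the machinery lists, mitochondrial ribosomal proteins called lower (14) became 3, 1 and 3 with quantile, TMM-like and nuclear-total scaling, 22 with covariates, 3 without wild type AngII replicates 1 and 2, and 7 to 18 when single libraries were left out. Complex I subunits called lower (3) became 1, 0 and 0 under the same scalings, 6 with the filter at 5 FPKM, 11 with covariates, and 0 to 8 when single libraries were left out. Over all genes, the 623 calls became 674, 645 and 317 under the same scalings and 1800 (12.0%) with covariates. The cause of these changes was not tested.

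The labels number the libraries 1 to 5 in each group. Deviations of same-numbered libraries correlated between -0.52 and 0.41 over 30 pairs (median -0.03), 10 pairs were over 0.1, and 3 libraries correlated best with their own number, so the numbers were not taken to pair the libraries. With the replicate block 0 members were called in each comparison, 430 in place of 623 genes were called over both treatments, and complex I had 6 calls. Summed levels from recovered reads were not run. The 22 tRNAs were not analysed here.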
